A study of Mus musculus with 10 samples.

Results

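The genes described here are 10 regulators of G-protein signalling (RGS): Rgs1, Rgs2, Rgs3, Rgs4, Rgs5, Rgs6, Rgs10, Rgs12, Rgs14 and Rgs16. They were taken by gene name from a table of 54532 genes, which holds 13 other genes named Rgs, and the group was chosen by the fall of Rgs4 between the vehicle and MEKi hearts measured here. Poly(A) RNA was sequenced from heart tissue of Rit1 M90I/+ mice, 5 given vehicle and 5 given the MEK1/MEK2 inhibitor trametinib (MEKi). Dosing began when the mice were 4 weeks old, at 1 mg/kg trametinib daily, and ran for 20 weeks, with the last dose 2 h before the hearts were taken. All 10 mice carried the same heterozygous RIT1 variant, made germline by crossing a conditional allele to a cytomegalovirus-Cre deleter line, so there was no wild-type heart. The vehicle held carboxymethylcellulose and Tween 80. Littermates of both sexes entered the study, the labels give no sex, and neither the labels nor the methods name the part of the heart sequenced. The labels number the samples as biological replicates, and the paper's legend for these transcript levels gives 5 hearts per group. The p-values therefore measure the spread between hearts, part of which may be technical.

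RGS proteins speed the hydrolysis of GTP by G-protein alpha subunits and so shorten signalling by G-protein-coupled receptors. In the heart these receptors include the adrenergic, muscarinic and angiotensin receptors that set rate, contraction and vessel tone. The family is divided by sequence into subfamilies: Rgs1, Rgs2, Rgs3, Rgs4, Rgs5 and Rgs16 belong to the R4 group, Rgs6 to the R7 group, and Rgs10, Rgs12 and Rgs14 to the R12 group. Rgs5 is widely used as a marker of pericytes, the cells that wrap capillaries, and Rgs4 is known from neurons, cardiomyocytes and vessel walls.

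Levels are in FPKM, fragments scaled by gene length and by library size, and log2 values are of FPKM + 0.1. The fragments recovered from the table were 13647167 to 16659254 per vehicle heart and 14868373 to 18474002 per MEKi heart. The library size that the FPKM scaling implies was above the recovered fragments in some hearts and below them in others. Cardiomyocyte transcripts fitted the tissue label, with a summed level of 15146 to 20802 FPKM in vehicle and 14976 to 20504 FPKM in MEKi hearts. Summed transcripts of atrial cardiomyocytes stood apart in Vehicle 4 (898 FPKM), MEKi 2 (740 FPKM) and Vehicle 5 (423 FPKM), against 13.7 to 59.0 FPKM in the other 7 hearts. Transcripts of the sex chromosomes split the 10 hearts along the line of treatment. Ddx3y, on the Y chromosome, averaged 11.2 FPKM in vehicle and was listed at 0 in all 5 MEKi hearts, whereas Xist averaged 5.86 FPKM in MEKi and was at most 0.00662 FPKM in vehicle. For every difference between the groups given here, treatment and what these transcripts mark cannot be told apart. Because this is bulk RNA, fewer cells of a type and less RNA per cell cannot be told apart either.

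Rgs4 and Rgs5 lie next to each other on chromosome 1, on opposite strands and 45664 bases apart. Rgs4 occupies chr1:169741477-169747642 on the minus strand and Rgs5 chr1:169655501-169695813 on the plus strand. The 250 bases before each start are shown because these neighbours differed in level and in their change with MEKi. They are RefSeq sequences of build GRCm38.p6, at chr1:169747643-169747892 for Rgs4 and chr1:169655251-169655500 for Rgs5, printed 5′ to 3′ in the direction of the gene, with matches to 6 searched motifs in capitals.
Rgs4: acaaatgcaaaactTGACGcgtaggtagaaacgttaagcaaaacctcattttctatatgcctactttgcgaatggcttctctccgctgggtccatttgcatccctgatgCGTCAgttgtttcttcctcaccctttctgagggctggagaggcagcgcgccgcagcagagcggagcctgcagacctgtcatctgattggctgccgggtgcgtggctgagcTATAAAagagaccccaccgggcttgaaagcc
Rgs5: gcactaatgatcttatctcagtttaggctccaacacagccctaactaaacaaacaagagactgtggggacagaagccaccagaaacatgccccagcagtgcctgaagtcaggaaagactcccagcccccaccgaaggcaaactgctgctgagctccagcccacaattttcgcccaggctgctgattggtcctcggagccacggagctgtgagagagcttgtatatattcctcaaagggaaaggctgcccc
The motifs, searched on both strands, were TATAAA, the AP-1 site TGANTCA, the cyclic AMP response element TGACGTCA, its half-site TGACG (which the full element contains), the ETS site CCGGAA and the E-box CACGTG. Rgs4 held TATAAA starting 31 bases before its start, a motif found in 12.4% of all promoters of this length. It also held TGACG at 236 bases before the start and, read on the other strand, at 141 bases before it, and 17.8% of promoters hold that half-site. The half-site was matched as well for Rgs2, at 185 and 67 bases, and for a start of Rgs12, at 82 bases. TATAAA was matched before both starts of Rgs3, at 100 and 177 bases. Log2 fold changes of Rgs2, Rgs12 and Rgs3 were 0.02, -0.05 and 0.03. Any part of these motifs in the change with MEKi was not tested. No letters of the 6 motifs were matched in the Rgs5 window. GC content was 53.6% in both windows, and 8 of the 10 genes had a RefSeq promoter.

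Rgs4, a small R4 protein that acts on Gi and Gq alpha subunits, was lower in every MEKi heart than in any vehicle heart. Its level was 3.76, 3.11, 3.95, 2.83 and 4.04 FPKM in Vehicle 1 to 5 and 1.36, 1.82, 1.56, 2.17 and 1.89 FPKM in MEKi 1 to 5. The groups did not overlap, and the highest MEKi heart lay below the lowest vehicle heart. The mean was 3.54 ± 0.537 FPKM (SD, n = 5) in vehicle and 1.76 ± 0.312 FPKM (SD, n = 5) in MEKi, 50.3% lower, with a log2 fold change of -0.97 (SE 0.15). These values rest on 122 to 196 fragments per vehicle heart and 71 to 120 per MEKi heart, and the heart-to-heart coefficient of variation was 15.2% and 17.7%, against 7.84% and 10.5% from counting alone. Because Rgs4 chose this group, the difference is a description and carries no test. With a pseudocount of 1 in place of 0.1 the log2 fold change was -0.72, and leaving out any 1 heart left it between -1.05 and -0.89. Without Vehicle 4, Vehicle 5 and MEKi 2, the hearts with the most atrial transcripts, it was -1.02.

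Rgs5, also an R4 protein, was by far the most abundant RGS transcript. Its level was 105, 111, 119, 92.7 and 129 FPKM in Vehicle 1 to 5 and 78.5, 77.1, 117, 112 and 71.7 FPKM in MEKi 1 to 5. MEKi 1, 2 and 5 lay below every vehicle heart, whereas MEKi 3 and 4 lay within the vehicle range. The mean was 111 ± 13.6 FPKM (SD, n = 5) in vehicle and 91.1 ± 21.3 FPKM (SD, n = 5) in MEKi, a log2 fold change of -0.31 (SE 0.15), and -0.27 without the 3 hearts rich in atrial transcripts. Rgs5 made up 76.8 ± 3.04% (SD, n = 10) of the summed FPKM of the 21 genes for RGS proteins in the table, with a range of 72.0% to 81.9% over the hearts. The ratio of Rgs5 to Rgs4 was 27.9 to 35.7 in vehicle and 37.9 to 74.9 in MEKi hearts.

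Pericyte transcripts were measured beside these genes. All 8 of 8 genes of the pericyte list had lower means in MEKi hearts, the median of their log2 fold changes being -0.25, and 0 passed the test over all genes. The log2 fold changes ran from -0.63 for Higd1b and -0.45 for Vtn to -0.05 for Ndufa4l2. Over all genes tested, 47.9% had lower fitted levels. The summed pericyte level was 73.2 to 115 FPKM in vehicle and 69.7 to 81.5 FPKM in MEKi hearts. Vehicle 1 and Vehicle 2 were at 115 FPKM, against 85.4, 77.1 and 73.2 FPKM in Vehicle 3 to 5. No marker of the list was at 0 in every heart. Endothelial transcripts were also lower in 7 of 8 genes, with a median log2 fold change of -0.14. Smooth muscle transcripts summed to 53.7 to 98.1 FPKM in vehicle and 64.1 to 103 FPKM in MEKi, with 5 of the 6 tested lower. The exception was Acta2, the most abundant of the list, at a mean of 42.8 FPKM in vehicle and 55.7 FPKM in MEKi (log2 fold change 0.39). The part of these transcripts in the levels of Rgs4 and Rgs5 was not tested between the groups.

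**Figure D1:**
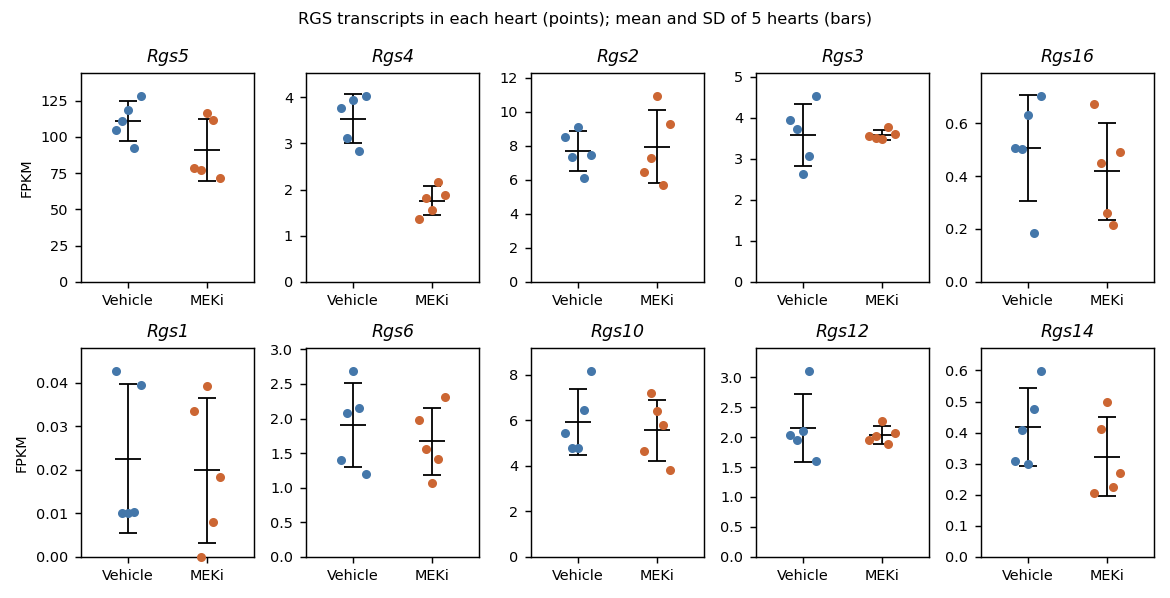
Level of each of the 10 RGS transcripts in FPKM on a linear axis from 0, with 1 point per heart and the mean and SD of 5 hearts per group as bars. Rgs4 ran from 2.83 to 4.04 FPKM in vehicle and from 1.36 to 2.17 FPKM in MEKi hearts, and in the other 9 panels the groups overlapped.

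The remaining R4 transcripts overlapped between the groups. Rgs2, which acts mainly on Gq alpha and limits vasoconstriction, was at 8.52, 7.31, 9.08, 6.10 and 7.46 FPKM in Vehicle 1 to 5 and at 6.47, 7.29, 10.9, 5.70 and 9.30 FPKM in MEKi 1 to 5. The highest and the lowest of these 10 values were both in MEKi hearts. Mean Rgs2 was 7.69 ± 1.16 FPKM (SD, n = 5) in vehicle and 7.94 ± 2.15 FPKM (SD, n = 5) in MEKi, with a log2 fold change of 0.02 (SE 0.18) that ranged from -0.11 without MEKi 3 to 0.13 without MEKi 4. Rgs3, which also binds G-protein beta-gamma subunits in its long form, was at 3.95, 3.73, 2.62, 3.08 and 4.54 FPKM in vehicle and at 3.56, 3.50, 3.48, 3.78 and 3.61 FPKM in MEKi hearts. The MEKi values sat close together, with a coefficient of variation of 3.33%, below the 3.95% that counting alone gives, whereas that of the vehicle hearts was 20.98%. The Rgs3 log2 fold change was 0.03 (SE 0.14), and it ranged from -0.08 without Vehicle 3 to 0.12 without Vehicle 5.

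Rgs16 and Rgs1 did not pass the filter of a mean of 0.5 FPKM. Rgs16, at a mean of 0.462 FPKM, was just under it and was found in every heart. Rgs1, at a mean of 0.0212 FPKM, was near the limit of detection. Rgs16, known as an inducible regulator of Gi and Gq signalling, was at 0.508, 0.504, 0.631, 0.184 and 0.705 FPKM in vehicle and at 0.673, 0.448, 0.262, 0.215 and 0.490 FPKM in MEKi hearts. It rested on 6 to 27 fragments per heart. Rgs1, a regulator best known from lymphocytes, had at most 5 fragments in any heart, with 12 fragments in all over the vehicle hearts (Poisson 95% interval 6.20 to 20.96) and 11 over the MEKi hearts (5.49 to 19.7). A difference in Rgs1 was not detectable at this depth. These intervals cover counting error only.

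Rgs6, the one R7 member, partners the G beta-5 subunit and is known for limiting muscarinic slowing of the heart. It was at 1.41, 2.08, 2.69, 2.15 and 1.19 FPKM in Vehicle 1 to 5 and at 1.98, 1.56, 1.07, 1.42 and 2.32 FPKM in MEKi 1 to 5, and the ranges overlapped over most of their length. Its log2 fold change was -0.17 (SE 0.24), with a range of -0.31 to -0.03 over the alternatives. Transcripts of the sinoatrial node, the pacemaker where this pathway acts, were lower in the 3 of 5 list genes tested, Hcn4, Tbx3 and Tbx18. Shox2 and Isl1 did not pass the filter, and Isl1 had at most 2 fragments in any heart. The 5 summed to 3.25 to 4.29 FPKM in vehicle and 2.12 to 3.68 FPKM in MEKi hearts. The highest sums were in Vehicle 4 (4.29 FPKM), Vehicle 5 (3.87 FPKM) and MEKi 2 (3.68 FPKM), the hearts with the most atrial transcripts. The part of the node transcripts in Rgs6 was not tested.

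Of the R12 members, Rgs10, a regulator of Gi alpha common in immune cells, was at 5.45, 4.78, 4.77, 6.46 and 8.19 FPKM in vehicle and at 4.64, 7.19, 6.41, 5.78 and 3.83 FPKM in MEKi hearts. Its highest value was in Vehicle 5 and its lowest in MEKi 5, and the log2 fold change was -0.09 (SE 0.19; -0.19 to 0.03 over the alternatives). The summed macrophage transcripts were 207 to 381 FPKM in vehicle and 186 to 229 FPKM in MEKi hearts, lower in 8 of 8 genes with 0 past the test, and their part in Rgs10 was not tested. Rgs12, a large scaffold protein that also binds Ras and Raf, was at 2.03, 1.95, 2.10, 3.11 and 1.603 FPKM in vehicle and at 1.95, 2.01, 2.27, 1.88 and 2.08 FPKM in MEKi hearts. The MEKi range lay inside the vehicle range, and the log2 fold change was -0.05 (SE 0.16; -0.14 to 0.09 over the alternatives). Rgs14, a scaffold with Ras-binding domains, was at 0.308, 0.409, 0.299, 0.474 and 0.5997 FPKM in vehicle and at 0.206, 0.412, 0.498, 0.224 and 0.270 FPKM in MEKi hearts. It was under the filter and was not tested.

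In all, 7 of the 10 genes passed the filter, of which 5 had lower and 2 higher fitted levels in MEKi hearts. By limma with Benjamini-Hochberg adjustment, 1 of the 7 was called, Rgs4, where 0.0794% of the 12602 genes tested were called. That share stands for 10 genes, among them the 4 sex-linked genes tested, Xist, Ddx3y, Eif2s3y and Uty. Rgs4 was also the 1 gene of the 7 with groups that did not overlap, where 1.64% of all genes had such groups. Since the contrast chose the group, nothing is read from these counts. The Rgs4 call was lost without any 1 of 8 of the 10 hearts and remained without Vehicle 4 or without MEKi 4. It was also lost without X, Y and mitochondrial genes, where 0 genes were called in all. The other 6 had log2 fold changes from -0.31 to 0.03, and the median over all genes was 0.01.

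The order of the levels over all 10 hearts was Rgs5, Rgs2, Rgs10, Rgs3, Rgs4, Rgs12, Rgs6, Rgs16, Rgs14 and Rgs1. Neighbours in this order were compared within each heart by an exact sign-flip permutation test (two-sided, Benjamini-Hochberg over 9 pairs), whose smallest p is 0.00195. The test measures agreement between hearts only, because the gene length used for FPKM is the same in every heart. The order therefore depends on those lengths. Rgs10, of 1711 bases, had 103 to 211 fragments per heart, and Rgs3, of 10801 bases and lower in FPKM, had 402 to 730. Rgs5 exceeded Rgs2 by 3.68 ± 0.387 on the log2 scale (SD, n = 10; higher in 10 of 10 hearts; exact adjusted p = 0.00439). The same adjusted p was reached for Rgs10 over Rgs3 (0.65 ± 0.322), Rgs6 over Rgs16 (1.78 ± 0.612) and Rgs14 over Rgs1 (1.92 ± 0.417), each in 10 of 10 hearts. These 4 steps passed in all 14 settings tried, but the sizes of the last 2 depended on the pseudocount. With pseudocounts of 1 and 0.01, Rgs6 over Rgs16 was 0.92 and 2.00, and Rgs14 over Rgs1 was 0.42 and 3.72. Rgs2 exceeded Rgs10 by 0.44 ± 0.477 in 7 of 10 hearts (exact adjusted p = 0.0469), and this passed in 6 of the 14 settings.

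The difference of Rgs12 over Rgs6 was within its spread (0.26 ± 0.404, higher in 6 of 10 hearts; exact adjusted p = 0.1004), and it passed in 1 of the 14 settings, without Vehicle 3 (exact adjusted p = 0.0469). That of Rgs16 over Rgs14 was also within its spread (0.22 ± 0.707, 7 of 10 hearts; exact adjusted p = 0.336) and passed in 0 of the 14. The place of Rgs4 in the order differed between the groups, and as its level chose the group no p is given for its neighbours. Rgs3 was 1.02 ± 0.210 times Rgs4 (SD, n = 5) in vehicle and 2.09 ± 0.349 times Rgs4 in MEKi hearts. Rgs4 exceeded Rgs12 in 4 of 5 vehicle hearts and in 1 of 5 MEKi hearts.

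**Figure D2:**
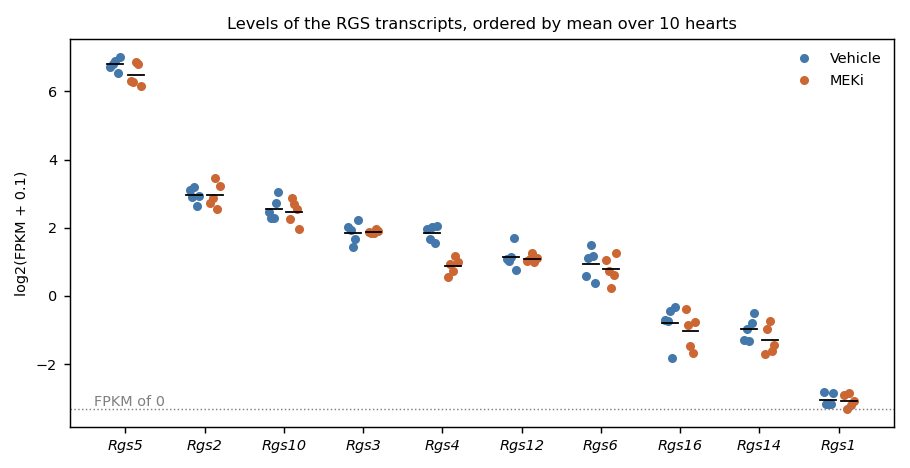
Level of each RGS transcript as log2(FPKM + 0.1), ordered by the mean over 10 hearts, with 1 point per heart and a bar at each group mean. The dotted line marks 0 FPKM, Rgs5 stands 3.68 log2 units above Rgs2, and Rgs1 lies at the foot of the range.

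The variation among hearts of the same group was examined next, after each group mean had been subtracted, which leaves out the contrast used to choose the genes. In 14 relations between an RGS transcript and another transcript or marker list, 0 passed the threshold by Pearson's r (exact permutation of hearts within groups, Benjamini-Hochberg over 14; smallest adjusted p = 0.103), and 1 had an unadjusted exact p under 0.05. That was Rgs14 with the lymphocyte list, with r = 0.708 over 10 hearts (exact permutation p = 0.00736, adjusted p = 0.103). Spearman's rho for this pair was 0.891 (exact permutation p = 0.000486, adjusted p = 0.00681). Leaving out Vehicle 3 and Vehicle 4, farthest from the median of the list, gave r = 0.940, and r was 0.580 without the 3 hearts rich in atrial transcripts. The list score rested on 3 of its 10 genes, Cd79a, Cd79b and Nkg7, and Rgs14 on 15 to 37 fragments per heart.

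Rgs4 and Rgs5, neighbours on the chromosome, gave r = 0.363 (rho = 0.406; exact permutation p = 0.352 and 0.299, adjusted p = 0.919 and 0.706), with 0.494 without MEKi 3 and MEKi 4. Leaving out 1 heart moved it from 0.157 (without MEKi 4) to 0.643 (without MEKi 3), and it was 0.224 without the 3 hearts rich in atrial transcripts. With the endothelial list, Rgs4 gave r = -0.208 (rho = -0.394; exact permutation p = 0.597 and 0.275, adjusted p = 0.970 and 0.706), which was -0.771 without Vehicle 5 and -0.0364 without Vehicle 3. With the pericyte list, r was -0.0199 for Rgs4 (rho = -0.0303; exact permutation p = 0.950 and 0.943) and 0.0598 for Rgs5 (rho = 0.285; exact permutation p = 0.832 and 0.353), with adjusted p from 0.706 to 0.977. Without Vehicle 1 and Vehicle 2 the Rgs5 value became 0.728, so it depended on those hearts. Rgs4 gave r = -0.161 with transcripts induced by the MAPK pathway (rho = 0.0667; exact permutation p = 0.693 and 0.871). Rgs10 gave r = 0.472 with the macrophage list (rho = 0.418; exact permutation p = 0.180 and 0.270, adjusted p = 0.919 and 0.706), and -0.0504 without Vehicle 3 and Vehicle 5.

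**Figure D3:**
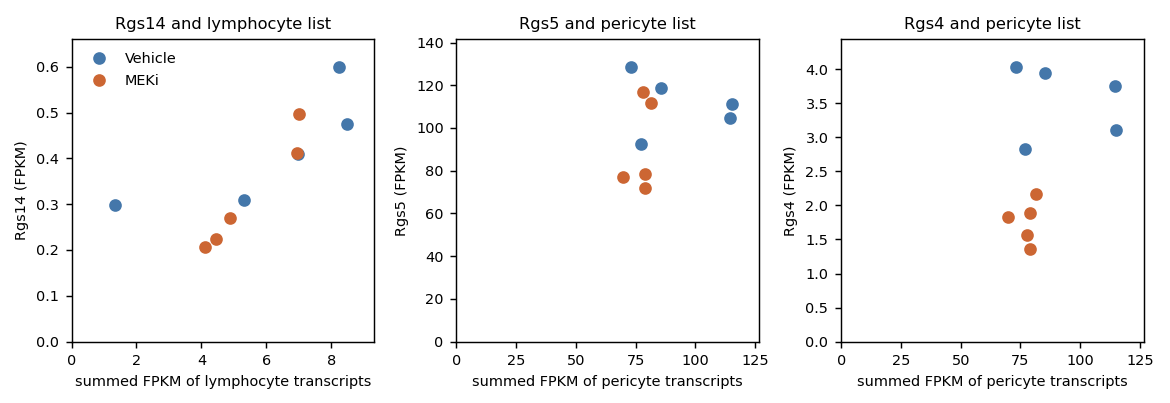
Rgs14, Rgs5 and Rgs4 in FPKM plotted against the summed FPKM of lymphocyte or pericyte transcripts, with 1 point per heart. Vehicle 3 sits apart at a lymphocyte sum of 1.35 FPKM, and the MEKi hearts lie within 69.7 to 81.5 FPKM of pericyte transcripts.

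Among 10704 other genes that averaged 1 FPKM or more, the 5 whose group-centred levels were most like Rgs4 over the 10 hearts were Zbtb20 (r = 0.872), Gm8186 (0.861), Aimp1 (0.849), Nasp (0.847) and Cep170b (0.840). The 5 most like Rgs5 were Cmklr1 (r = 0.935), Gm7658 (0.910), Rflnb (0.909), Ifi207 (0.903) and Klhl38 (0.898). These were the highest of 10704 values computed over 10 hearts that share their libraries, and they are a description of likeness.

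The rest of the pathway was followed through 7 lists of 124 genes, of which 79 passed the filter and 0 were called by limma or by limma-voom on the recovered fragments, with 8 (10.1%) at an unadjusted p under 0.05, against 7.62% of all genes. The counts of higher and lower genes given below stand beside 47.9% of all genes lower. Among the other Rgs genes, 3 were tested. Rgs19, a regulator of Gi alpha, was at 3.69 ± 0.658 FPKM in vehicle and 2.89 ± 0.586 FPKM in MEKi (SD, n = 5; log2 fold change -0.34, SE 0.16, limma adjusted p = 0.652). Rgs18, known from platelets and their precursors, was at 8.39 FPKM in Vehicle 5 and at 0.389 to 0.854 FPKM in the other vehicle hearts, and at 0.606 to 2.08 FPKM in MEKi hearts. Its log2 fold change of -0.26 (limma adjusted p = 0.951) became 0.43 without Vehicle 5. The summed platelet transcripts were also highest in Vehicle 5, at 148 FPKM, and their part in Rgs18 was not tested. Rgs7bp, which anchors R7 proteins at the membrane, differed by 0.43 on the log2 scale (adjusted p = 0.751, limma). It was at 1.61 FPKM in MEKi 5, at 0.486 to 0.861 FPKM in the other MEKi hearts and at 0.436 to 0.696 FPKM in vehicle hearts.

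Of the 13 other RGS-domain genes tested, 2 had higher and 11 lower fitted levels, where 47.9% of all genes were lower. Their log2 fold changes had a median of -0.04, so many of the falls were small. Grk6, a kinase that phosphorylates active receptors, was the 1 gene of the 79 tested (1.27%) whose groups did not overlap, where 1.64% of all genes had such groups. It was at 5.56 ± 0.326 FPKM in vehicle and 4.54 ± 0.274 FPKM in MEKi (SD, n = 5; log2 fold change -0.28, SE 0.08, limma adjusted p = 0.445). Its relative Grk3 differed by -0.51 on the log2 scale (adjusted p = 0.554, limma), and Akap10, an anchor for protein kinase A, by 0.34 (adjusted p = 0.619, limma).

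The G-protein subunits, of which RGS proteins act on alpha subunits, had medians near that of all genes. For the 11 alpha subunits tested the median log2 fold change was -0.05, with 3 higher and 8 lower, and for the 10 beta and gamma subunits it was 0.02, with 6 higher and 4 lower. Gnas, the stimulatory alpha subunit, was at 6.08 ± 1.42 FPKM in vehicle and 8.22 ± 1.499 FPKM in MEKi (SD, n = 5; log2 fold change 0.45, limma adjusted p = 0.606). Gnaq had a log2 fold change of 0.11 and Gnao1 of -0.16. The 4 other regulators of alpha subunits tested, among them the exchange factor Ric8a (0.14) and the Gi-binding Gpsm3 (-0.18), had a median of -0.07.

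Upstream, 20 receptors coupled to Gi or Gq were tested, 7 higher and 13 lower, and the median of their log2 fold changes was -0.10. The alpha-1 adrenergic receptor Adra1b was at 4.38 ± 1.38 FPKM in vehicle and 6.67 ± 1.77 FPKM in MEKi (SD, n = 5; log2 fold change 0.60, limma adjusted p = 0.563). The angiotensin receptor Agtr1a had a log2 fold change of 0.41 and the sphingosine 1-phosphate receptor S1pr3 of -0.40. Downstream, 18 effectors were tested, 7 higher and 11 lower, with a median of -0.08. Kcnj5, a subunit of the potassium channel that the vagus nerve opens in atrial and nodal cells, was at 9.46 FPKM in vehicle and 11.7 FPKM in MEKi hearts on average (log2 fold change 0.32, limma adjusted p = 0.605). The adenylyl cyclases Adcy5 and Adcy7 had log2 fold changes of 0.30 and -0.39.

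**Figure D4:**
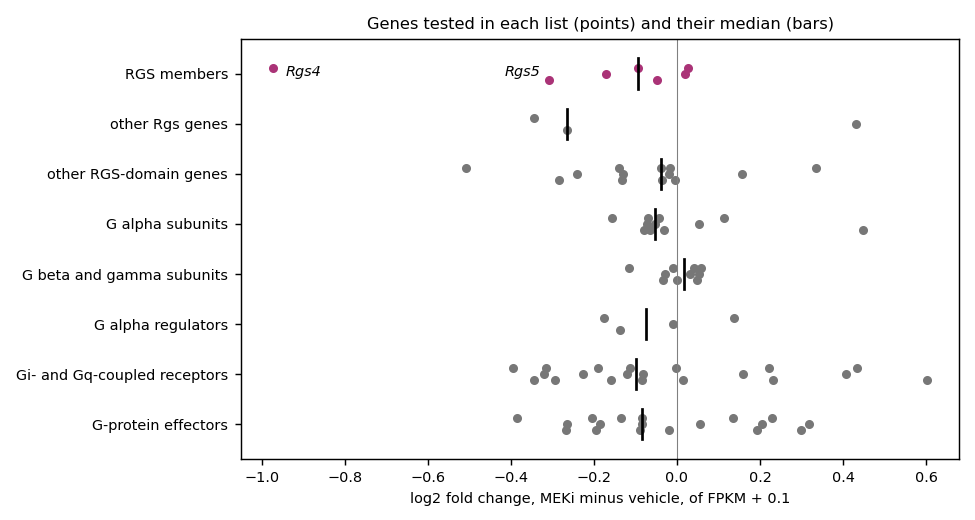
Log2 fold change, MEKi minus vehicle, of every tested gene in the RGS group and the 7 other lists, with 1 point per gene and a bar at the list median. Rgs4 lies at -0.97, and the medians of the 7 other lists run from -0.26 to 0.02.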

How the data were processed

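Messenger RNA was sequenced from 10 hearts (5 vehicle, 5 MEKi). The authors deposited FPKM for each gene and heart, with gene lengths and coordinates. The submitters' processing notes name fastp, STAR 2.5, HTSeq 0.6.1 and mm10. FPKM multiplied by gene length gave whole fragments for 100% of values (tolerance 0.01), which were used for depth, counting error and limma-voom. Intervals cover counting error only. The 10 genes and all lists were chosen with earlier results of these data known.

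Log2(FPKM + 0.1) was fitted with limma 3.58.1 in R 4.3.3 (eBayes with trend, two-sided) for the 12602 genes averaging 0.5 FPKM or more, and p-values were adjusted by Benjamini-Hochberg (threshold 0.05). The methods state no test for these libraries. Named were the 10 genes, up to 4 genes per pathway list with the largest log2 fold change, the 5 genes most like Rgs4 and Rgs5, neighbouring genes, and some cell-type and sex-linked markers. Exact tests used Python 3.11.15 with scipy 1.17.1, over 1024 sign flips or 14400 pairings within groups. The fit was tested on simulated data. Alternatives were pseudocounts of 1 and 0.01, other filters, a TPM scale, quantile normalization, other eBayes settings, limma-voom, a replicate block, leaving out X, Y and mitochondrial genes, and leaving out hearts. Coordinates are those of the table, and promoters were matched by gene name to RefSeq (GRCm38.p6). Antisense or small genes overlapping Rgs3, Rgs6, Rgs12 and Rgs16 had at most 3 fragments in any heart. Gm15503, a processed transcript overlapping Rgs10 on the same strand, had at most 5.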

Additional observations from a re-analysis of the deposited data

Results flagged for a closer look

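The groups of 5 hearts examined numbered 90, each gene or sum being taken in vehicle and in MEKi hearts. They covered the RGS genes, the pathway genes with the largest changes and only part of the marker sums. Of these groups, 4 held a heart whose gap to its nearest neighbour was more than 0.71 of the group's range. Chance flags about 1 in 20 groups, or 4.5 of 90. None of the 10 RGS genes had such a heart. Rgs18 was at 8.39 FPKM in Vehicle 5, against 0.389 to 0.854 FPKM in the other vehicle hearts. It was at 2.08 FPKM in MEKi 3, against 0.606 to 0.877 FPKM in the other MEKi hearts. The summed platelet transcripts were at 148 FPKM in Vehicle 5, against 36.1 to 45.5 FPKM in the other vehicle hearts. The summed atrial cardiomyocyte transcripts were at 740 FPKM in MEKi 2, against 17.5 to 23.8 FPKM in the other MEKi hearts. Outside the 90 groups, fibroblast transcripts summed to 235 FPKM in Vehicle 5, against 149 to 170 FPKM in the other vehicle hearts. Adipocyte transcripts summed to 15.6 FPKM in MEKi 2, against 1.46 to 3.69 FPKM in the other MEKi hearts. Both gaps also exceeded 0.71 of the group's range, so the count of 4 is not complete for the marker sums.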

How the results depend on the processing

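The fall in Rgs4 kept its direction under every alternative that tested the gene, whereas its call was lost under many. Because the groups did not overlap, leaving out hearts or changing the pseudocount could not reverse the direction, and nothing is read from it. Of the RGS genes, 1 was called, and this became 0 with every gene above 0, with a mean of at least 5 FPKM (where Rgs4 was not tested), on a TPM scale, with quantile normalization, with eBayes without trend, without X, Y and mitochondrial genes, and without Vehicle 4, Vehicle 5 and MEKi 2. Leaving out 1 heart gave 0 to 1. The Rgs4 log2 fold change was -0.72 with a pseudocount of 1. Over all genes, 10 calls became 2 with a mean of at least 5 FPKM, 0 without X, Y and mitochondrial genes, 5 without the 3 hearts, and 5 to 13 when 1 heart was left out (lowest without Vehicle 2). With the replicate block the calls were 4, the RGS genes called 0 and the Rgs4 log2 fold change -0.97. The numbers did not pair the hearts: deviations of same-numbered hearts correlated at -0.154 to -0.0209, and no heart correlated best with its own number. Relations past the threshold numbered 0 to 1 when 1 heart was left out (1 without Vehicle 1, where Rgs14 and the lymphocyte list gave r = 0.760). Without the 3 hearts r turned to -0.0312 for Rgs16 with endothelial transcripts, -0.202 for Rgs4 with smooth muscle and -0.0421 for Rgs5 with pericytes, and that of Rgs4 with endothelial transcripts moved from -0.208 to -0.766. Leaving out 1 heart gave -0.418 to 0.231, -0.0930 to 0.277 and -0.121 to 0.213 for these, -0.377 to 0.105 for Rgs4 with atrial and -0.302 to 0.178 for Rgs4 with pericyte transcripts. The cause of these changes was not tested. The lists of the rest of the pathway had 0 calls under each of 22 alternatives. Depth limits Rgs1, Rgs14 and Rgs16, and 5 hearts per group limit the rest.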

Other observations

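Of the 13 other Rgs genes in the table, 10 were under the filter. Rgs7 averaged 0.249 FPKM in vehicle and 0.223 FPKM in MEKi hearts, Rgs17 averaged 0.255 and 0.192 FPKM, and Rgs11 0.0715 and 0.0836 FPKM. Rgs21 was listed at 0 in all 10 hearts. In the promoters of the other members, GC content was 72.4% for Rgs2, 76.4% for Rgs10, 66.4% for Rgs16 and 59.2% for Rgs6. The starts of Rgs12 had 68.4% and 55.6%, and those of Rgs3 had 48.4% and 56.8%, against a median of 52.4% over all RefSeq promoters of this length.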
